A study of Mus musculus with 6 samples.

Results

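Transcripts of 10 heat shock chaperone genes were examined in mouse embryonic stem (ES) cells with and without a Sim2 transgene: the small heat shock protein genes Hspb1 and Hspb8, the co-chaperone gene Bag3, the HSP70 genes Hspa1a, Hspa1b, Hspa5 and Hspa8, the HSP110 gene Hsph1, the HSP40 gene Dnajb1 and the HSP90 gene Hsp90ab1. They were found by gene name, and all 10 were present among the 22602 genes of the expression table. The genes were selected on earlier knowledge of these values, with the difference in RPKM between the clones and the parental line known: Hspb8 also belongs to a gene list that the study drew in part from these libraries, and the others are its partners or fellow chaperones. Their differences between the groups are therefore a description, given as a log2 fold change with its standard error and without a p-value.

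SIM2 is a bHLH-PAS transcription factor that pairs with ARNT. The 3 clones A6, B8 and C4 carry a Flag-tagged mouse Sim2 with a Venus reporter inserted at ROSA26, and tetracycline in the medium keeps its promoter silent. Each of these libraries is 1 clone. The controls EB3-0, EB3-1 and EB3-2 are independent cultures of the EBRTcH3 (EB3) parental line, which has the inducible system and Venus but no Sim2 transgene. All 6 cultures grew on gelatin with serum and Leukemia Inhibitory Factor, and had spent 26 h without tetracycline, so every group shares that step. RNA from the bulk cultures was sequenced as mRNA libraries with paired reads. Sim2 stood at 196, 212 and 168 RPKM (reads per kilobase of transcript, scaled to library size) in A6, B8 and C4 and at 0.0917 to 0.130 RPKM in EB3, as the labels require.

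Chaperones bind proteins that have not reached or have lost their fold. Small heat shock proteins hold them in solution without using ATP, and HSP70 proteins then refold them in ATP-driven cycles that HSP40 proteins start and HSP110 proteins and BAG proteins end by exchanging the nucleotide. HSPB8 forms a complex with BAG3 and HSP70 that hands damaged proteins to autophagy, a route best known from muscle and neurons. Under heat or misfolding stress in the cytosol, HSF1 binds heat shock elements, which are inverted repeats of GAA and TTC, before genes such as Hspa1a and Hspb1. Stress in the endoplasmic reticulum (ER) acts instead through ATF6 and related factors on the ER stress response element, before genes such as Hspa5.

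Letters of these elements were sought before the transcript starts of the members. Windows were available in the RefSeq table of build GRCm38.p6 for 8 members, and the 250 bases before the start each matched build mm9, the build of the expression table, at 1 place without a mismatch. The last 150 bases before the start are given 5′ to 3′ on the gene's strand for Hspa5 at chr2:34627460-34627609 (plus strand), Hspb1 at chr5:136363639-136363788 (plus), Hspa1a at chr17:35109102-35109251 (minus), Hspa1b at chr17:35096184-35096333 (minus) and Hspb8 at chr5:116872874-116873023 (minus), the genes whose values are described most closely here. Capitals mark the ER stress response element in Hspa5 and heat shock element letters in Hspb1, Hspa1a and Hspa1b, and Hspb8 holds neither.
Hspa5: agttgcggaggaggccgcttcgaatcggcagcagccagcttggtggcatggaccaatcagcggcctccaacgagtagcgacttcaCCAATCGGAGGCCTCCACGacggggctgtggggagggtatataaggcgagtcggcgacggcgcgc
Hspb1: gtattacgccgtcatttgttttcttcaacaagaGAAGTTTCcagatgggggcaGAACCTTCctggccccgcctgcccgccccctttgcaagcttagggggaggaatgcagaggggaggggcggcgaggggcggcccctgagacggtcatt
Hspa1a: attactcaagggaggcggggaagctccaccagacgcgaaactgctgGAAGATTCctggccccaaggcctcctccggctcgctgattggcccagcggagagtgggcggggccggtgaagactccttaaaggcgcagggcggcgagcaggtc
Hspa1b: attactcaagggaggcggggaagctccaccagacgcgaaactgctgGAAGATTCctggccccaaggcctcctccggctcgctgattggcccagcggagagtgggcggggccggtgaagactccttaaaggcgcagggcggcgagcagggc
Hspb8: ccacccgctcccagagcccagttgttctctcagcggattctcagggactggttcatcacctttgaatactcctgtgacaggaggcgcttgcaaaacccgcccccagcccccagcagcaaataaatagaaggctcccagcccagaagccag
Searched on both strands, Hspa5 held the full ER stress response element, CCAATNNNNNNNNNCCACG, at positions -65 to -47 from the start. Only 0.130% of the 27025 genes in the RefSeq table hold it in the same 250 bases. Hspb1 held the head-to-head heat shock letters GAANNTTC at -117 to -110 and again at -97 to -90, and Hspa1a and Hspa1b each held them at -104 to -97, 3 of 8 members against 7.73% of all genes. Hspa1a and Hspa1b were identical at 149 of these 150 bases and at 98.8% of the 250. Hsph1 held the tail-to-tail letters TTCNNGAA, found before 8.11% of genes, and the longer TTCNNGAANNTTC was before none of the 8 members and before 0.514% of all genes. In the windows of Hspb8 and Bag3 no letters of any searched motif were found, including CCAAT, which 37.5% of genes hold and which forms part of the ER element. The core ACGTG of the site known for SIM2 with ARNT lay before Hspa5, Hsph1 and, for a second and later start only, Dnajb1, 3 of 8 members against 18.5% of genes. A match of letters is a description and not a measured site, and a window without a match says nothing of a factor bound elsewhere.

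**Figure D1:**
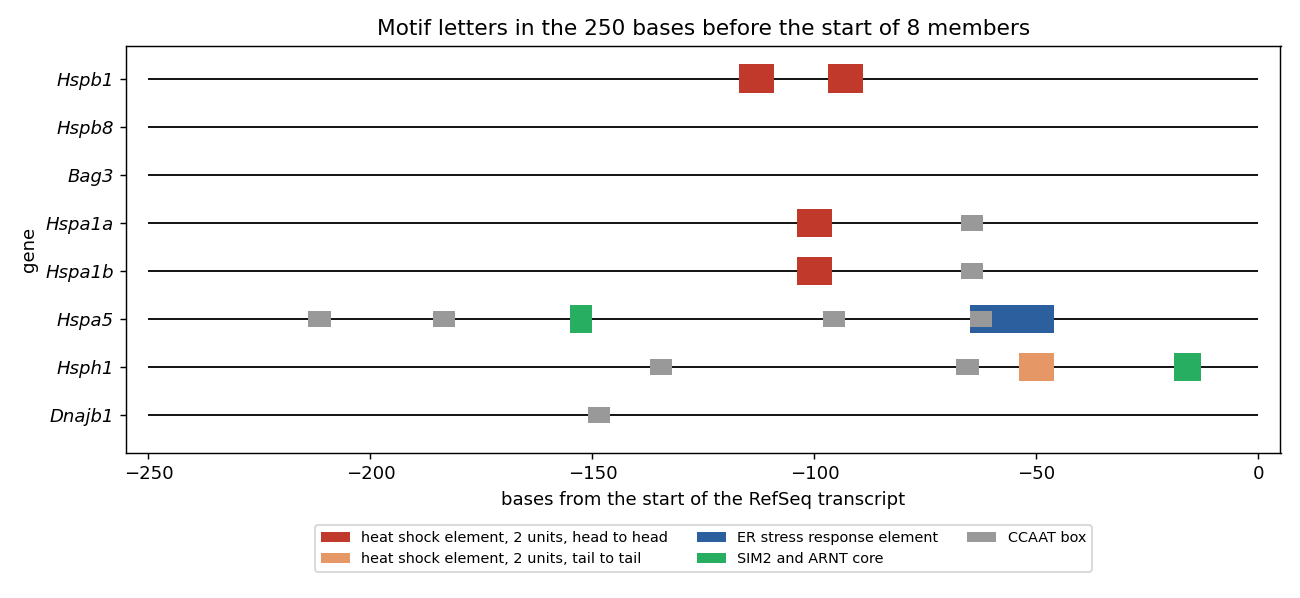
Positions of motif letters in the 250 bases before the transcript start of 8 members, in bases from the start (x axis) with 1 line per gene; the windows whose start equals the start in the expression table are drawn, and coloured boxes stand for the motifs named in the key. Heat shock element letters lie at -117 to -90 in Hspb1 and at -104 to -97 in Hspa1a and Hspa1b, the ER stress response element lies at -65 to -47 in Hspa5, and the lines of Hspb8 and Bag3 are empty.

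Between 25095861 reads (A6) and 28269340 reads (C4) could be recovered from the RPKM values, so that 1 read in a transcript of 2000 bases is worth 0.0177 to 0.0199 RPKM. Among the EB3 cultures, EB3-0 stood apart: its median log2 difference from the other two ran from 0.35 for genes with a cDNA of up to 1000 bases to -0.31 for those over 4000 bases. EB3-1 and EB3-2 were far closer to each other (Pearson's r = 0.997 across 11595 genes, which are not independent replicates) but still differed beyond sampling noise, with a chi-square of 2.78 per gene against 12.4 to 78.4 for the other pairs within a group. B8 was the clone least like the others (r = 0.979 and 0.982, against 0.993 between A6 and C4). Of 8 pluripotent stem cell markers all were well expressed (summed level 5562 to 7037 RPKM), while 7 of 8 fibroblast markers and 6 of 8 striated muscle markers stayed under 1 RPKM in every library, with Lum and Postn listed at 0. Fewer cells of a type and less RNA per cell cannot be told apart in such bulk samples. The test across all genes, limma on log2(RPKM + 0.5), called 81 of 11595 genes at an adjusted p under 0.05 (0.699%), of which 40 were higher in the clones (0.345%) and 41 lower (0.354%). Since EB3-0 and B8 stand apart, values without 1 of them are also given for some members and other genes. Without EB3-0 the controls are only EB3-1 and EB3-2, which lie far closer together, and 694 genes were called. Little is therefore read from a call in that fit.

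The members ranged from the most abundant transcripts of these ES cells to one with 51.4% of genes above it, and their order by RPKM was the same in both groups. In EB3, mean levels ran from Hsp90ab1 at 3550 RPKM, through Hspb1 (533), Hspa5 (354), Hspa8 (250.4), Hsph1 (128), Dnajb1 (54.0), Hspb8 (13.6), Bag3 (13.1) and Hspa1b (3.32), to Hspa1a at 1.14 RPKM. Over all 6 libraries Hsp90ab1, the constitutive cytosolic HSP90, was the gene with rank 3 of the 22602, and its transcripts made up 69.2 to 73.2% of the members' summed RPKM. Neighbours in the order had ranges that did not meet, except for Hspb8 and Bag3 in EB3, which overlapped. The inducible HSP70 genes stood at the bottom and the constitutive ones near the top: Hspa1a and Hspa1b together made up 1.27 to 1.86% of the summed RPKM of Hspa1a, Hspa1b and Hspa8 in every library.

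**Figure D2:**
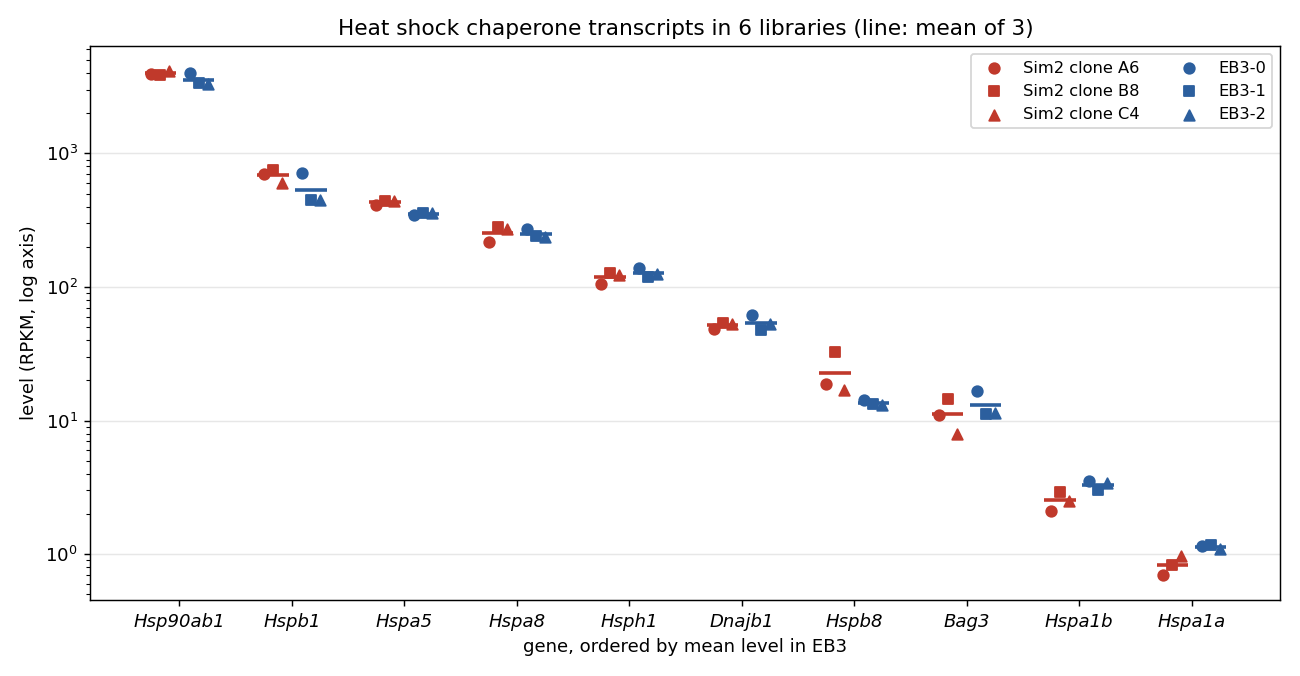
Level of each member in RPKM (log axis) in the 3 Sim2 clones (red) and the 3 EB3 cultures (blue); each point is 1 library and each line the mean of 3. The levels span from Hspa1a near 1 RPKM to Hsp90ab1 above 3000 RPKM, and Hspb8 in clone B8 (32.9 RPKM) stands above all other libraries for that gene.

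Hspb8 was higher in every clone, whereas its partner Bag3 was not. Hspb8, the small heat shock protein of the BAG3 complex (chr5:116858504-116872873, minus strand, 3 exons), was at 18.7, 32.9 and 16.9 RPKM in clones A6, B8 and C4, and at 14.2, 13.3 and 13.2 RPKM in EB3-0, EB3-1 and EB3-2. Every clone lay above every EB3 culture, with B8 far above the other clones. These levels rest on 850, 1534 and 867 reads in the clones and 623 to 701 reads in EB3. The means were 22.8 ± 8.73 (SD, n = 3) and 13.6 ± 0.543 RPKM (SD, n = 3), a ratio of 1.68, and the log2 fold change was 0.67 ± 0.22 (SE). Without B8 the log2 fold change was 0.38, and without EB3-0 it was 0.70. On the log2 scale the SD of Hspb8 was 0.51 among the clones, larger than that of 95.8% of tested genes, and 0.06 among the EB3 cultures, larger than that of 12.3%. That spread among the clones is close in size to the difference between the groups.

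Bag3 encodes the BAG domain co-chaperone that joins HSPB8 to HSP70 (chr7:135667097-135690493, plus strand, 4 exons). It was at 11.0, 14.6 and 7.98 RPKM in the clones A6, B8 and C4, and at 16.6, 11.2 and 11.4 RPKM in the EB3 cultures. The groups overlapped, with the highest value in EB3-0 and the lowest in C4, and the log2 fold change was -0.23 ± 0.23 (SE), or -0.44 without B8, -0.055 without EB3-0 and -0.021 without C4. In each library the ratio of Hspb8 to Bag3 RPKM was 1.70, 2.25 and 2.12 in A6, B8 and C4 and 0.854, 1.18 and 1.16 in EB3-0, EB3-1 and EB3-2. These ratios did not overlap between the groups, with means of 2.02 ± 0.290 and 1.07 ± 0.183 (SD, n = 3 each). Hspb8 alone already did not overlap, as was the case for 26.1% of all tested genes. The share of other gene pairs whose ratio does not overlap was not computed, so nothing is read from it. Hspb8 and Bag3 shared the order B8, A6, C4 among the clones, as did Hspb1 and 19.2% of tested genes.

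Hspb1, the most abundant small heat shock protein gene (chr5:136363789-136365433, plus strand, 3 exons), was at 701, 757 and 599 RPKM in A6, B8 and C4. In EB3 it was at 708 RPKM in EB3-0 but at 447 and 446 in EB3-1 and EB3-2. EB3-0 lay within the range of the clones, while the other two lay below all of them. The log2 fold change was 0.39 ± 0.19 (SE) over all libraries and 0.61 without EB3-0. With a cDNA of 903 bases, Hspb1 is the shortest member, and the excess of EB3-0 over the other cultures was 0.66 on the log2 scale as deposited and 0.39 once the trend with cDNA length was removed. A stretch of 815 bases on chromosome 13 is 99.5% identical to its transcript, so reads of the gene and of that copy may have been mixed and its level is uncertain.

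Hspa5 encodes BiP, the HSP70 of the ER lumen (chr2:34627610-34632049, plus strand, 9 exons). It was at 411, 440.1 and 439 RPKM in the clones and at 348, 359 and 356 RPKM in EB3. All 3 clones were higher, by a small and even margin: the ratio of the means was 1.21 and the log2 fold change 0.28 ± 0.09 (SE), with 0.26 to 0.31 when any 1 library was left out. The SD of Hspa5 among the EB3 cultures was 0.02 on the log2 scale, and only 2.50% of tested genes had a smaller one. No copy of 200 bases or more at 90% identity was found elsewhere in mm9 for Hspa5, Hspb8, Bag3, Hsph1 or Dnajb1.

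The inducible HSP70 genes went the other way at low levels. Hspa1b (chr17:35093374-35096183, minus strand, 1 exon) was at 2.11, 2.94 and 2.52 RPKM in A6, B8 and C4 and at 3.51, 3.03 and 3.41 RPKM in the EB3 cultures. Hspa1a, its neighbour (chr17:35106304-35109101, minus strand, 1 exon), was at 0.698, 0.832 and 0.973 RPKM in the clones and at 1.15, 1.16 and 1.10 RPKM in EB3. Both were lower in every clone than in every EB3 culture, with B8 and EB3-1 close together for Hspa1b. The log2 fold changes were -0.34 ± 0.16 (SE) for Hspa1b and -0.30 ± 0.15 (SE) for Hspa1a. At a mean of 0.986 RPKM, Hspa1a fell under the minimum of 1 RPKM for testing and takes its values from a fit of all genes. Hspa1b ran from -0.44 to -0.24 when any 1 library was left out. The 2 transcripts share a stretch of 2169 bases at 99.3% identity, and 47.8% of the 100-base windows of Hspa1a occur unchanged in Hspa1b, so reads can be split between them in an unknown way. Their sum does not depend on that split, but it would be too low if reads matching both genes were left out. Whether they were is not stated. The sum was 2.81, 3.77 and 3.49 RPKM in the clones and 4.66, 4.20 and 4.50 RPKM in EB3, from 198 to 277 reads and 315 to 357 reads. As a share of the summed RPKM of Hspa1a, Hspa1b and Hspa8, the pair took 1.27 to 1.33% in the clones and 1.67 to 1.86% in EB3.

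Hspa8, the constitutive cytosolic HSP70 (chr9:40609356-40613282, plus strand), was at 217, 280.3 and 270.5 RPKM in A6, B8 and C4 and at 274, 239.9 and 237 RPKM in EB3. The groups overlapped, and the log2 fold change of 0.025 ± 0.12 (SE) changed sign in 5 of 15 alternatives (-0.046 to -0.0042). Copies of Hspa8 occur in 20 segments of mm9 that together cover 100% of its transcript. The listed gene LOC624853 also overlaps Hspa8 by 597 bases on the same strand, so the level of Hspa8 is uncertain. The ratio of the ER form Hspa5 to Hspa8 was 1.57 to 1.90 in the clones and 1.27, 1.496 and 1.501 in the EB3 cultures. It did not overlap between the groups, but neither did Hspa5 alone.

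The groups overlapped for the genes whose products drive the HSP70 cycle. Hsph1, the HSP110 nucleotide exchange factor (chr5:150419420-150438890, minus strand), was at 106, 128 and 123 RPKM in A6, B8 and C4 and at 138, 119.6 and 126 RPKM in EB3. Dnajb1, the HSP40 that delivers unfolded proteins to HSP70 (chr8:86132074-86135802, plus strand), was at 48.8, 54.2 and 52.5 RPKM in the clones and at 61.9, 47.8 and 52.4 RPKM in EB3. EB3-0 was the highest library for both, and the log2 fold changes were -0.11 ± 0.10 (SE) and -0.05 ± 0.11 (SE). Dnajb1 turned to 0.05 without EB3-0. Hsp90ab1 (chr17:45704727-45710210, minus strand) was at 3938, 3847 and 4132 RPKM in the clones and at 4017, 3346 and 3288 RPKM in EB3. Again EB3-0 alone lay among the clones, and the log2 fold change was 0.17 ± 0.15 (SE), or 0.26 without EB3-0. A segment of 2510 bases on chromosome X is 90.8% identical to Hsp90ab1.

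Counted together, 5 members were higher in the clones and 5 lower, and the median log2 fold change of the 9 tested members was 0.02 against -0.01 for all tested genes. The median size of the change, without its sign, was 0.23 for the members and 0.16 for all genes. Of the 9 tested members, 0 were called at an adjusted p under 0.05 by limma (background 0.699%), and 0 by voom on the recovered reads. At an unadjusted p under 0.05, 2 passed by either tool, against 17.8% of all tested genes by limma. Without EB3-0, Hspb1, Hspa5 and Hsp90ab1 were among 694 genes called. The study's own test of these libraries, by edgeR, did call Hspb8 higher in the clones. The study also linked a SIM2 peak to the Hspb8 promoter through published chromatin contact data. Because the genes were chosen with this contrast known, nothing is read from these counts. The groups did not overlap for 4 of 10 members (Hspb8 and Hspa5 higher, Hspa1a and Hspa1b lower), or 3 of the 9 tested, where 26.1% of all tested genes did not overlap. Leaving out a library can only add to such a count: without EB3-0 it was 6 of 10, with Hspb1 and Hsp90ab1 added, where 49.3% of all tested genes did not overlap, and without B8 it was 5, with Bag3 added, where 34.3% did not.

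**Figure D3:**
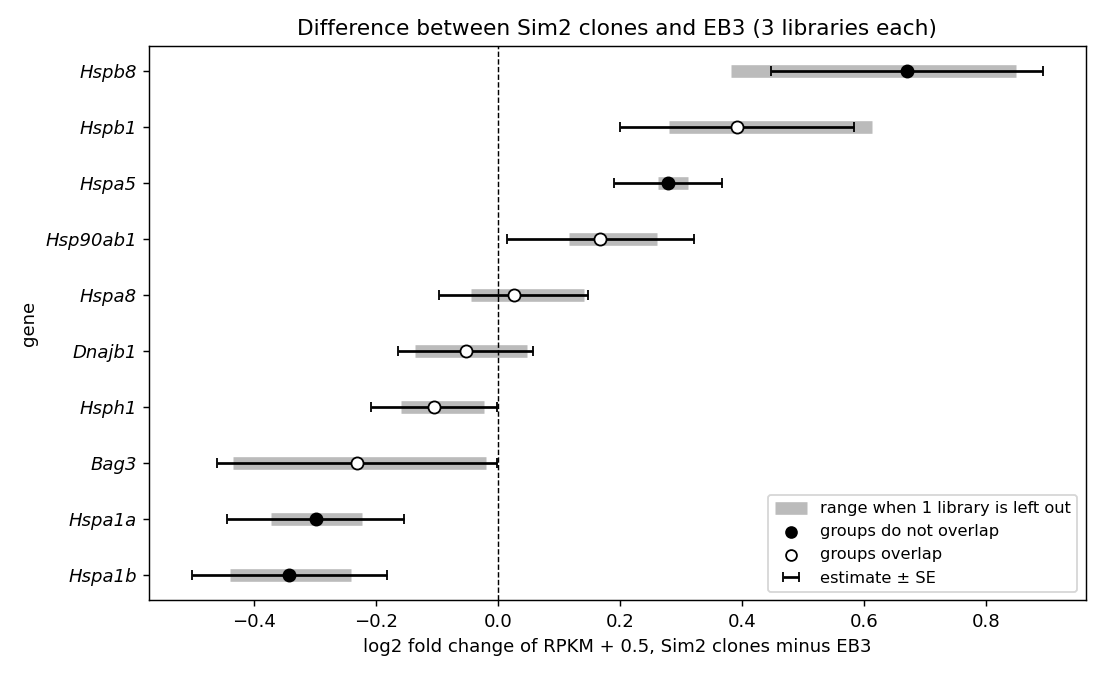
Log2 fold change of RPKM + 0.5 between the Sim2 clones and EB3 (x axis) for each member (y axis): points with bars are the estimate ± SE over 3 libraries a group, grey bands the range when any 1 library is left out, and filled points mark members whose groups do not overlap. Hspb8 has the highest value (0.67) and the widest band (0.38 to 0.85), and Hspa5 the narrowest (0.26 to 0.31).

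Single libraries carried much of the variation. EB3-0 was the highest EB3 culture for 8 of 10 members, as it was for 44.9% of tested genes, and with the length trend removed for 7 of the 9 tested members (49.4% of tested genes). Its log2 difference from the mean of the other EB3 cultures was 0.66 for Hspb1 and 0.53 for Bag3, at the percentiles 98.7 and 96.4 of all tested genes, but 0.09 for Hspb8 and -0.04 for Hspa5. B8 was the highest clone for 8 of 10 members, as for 40.5% of tested genes. Its difference from the mean of A6 and C4 was 0.87 for Hspb8 and 0.61 for Bag3, at the percentiles 98.5 and 95.9, and 0.29 or less for the rest. Hspb8 and Bag3 thus shared the excess in B8, while Bag3 and Hspb1 shared the one in EB3-0.

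**Figure D4:**
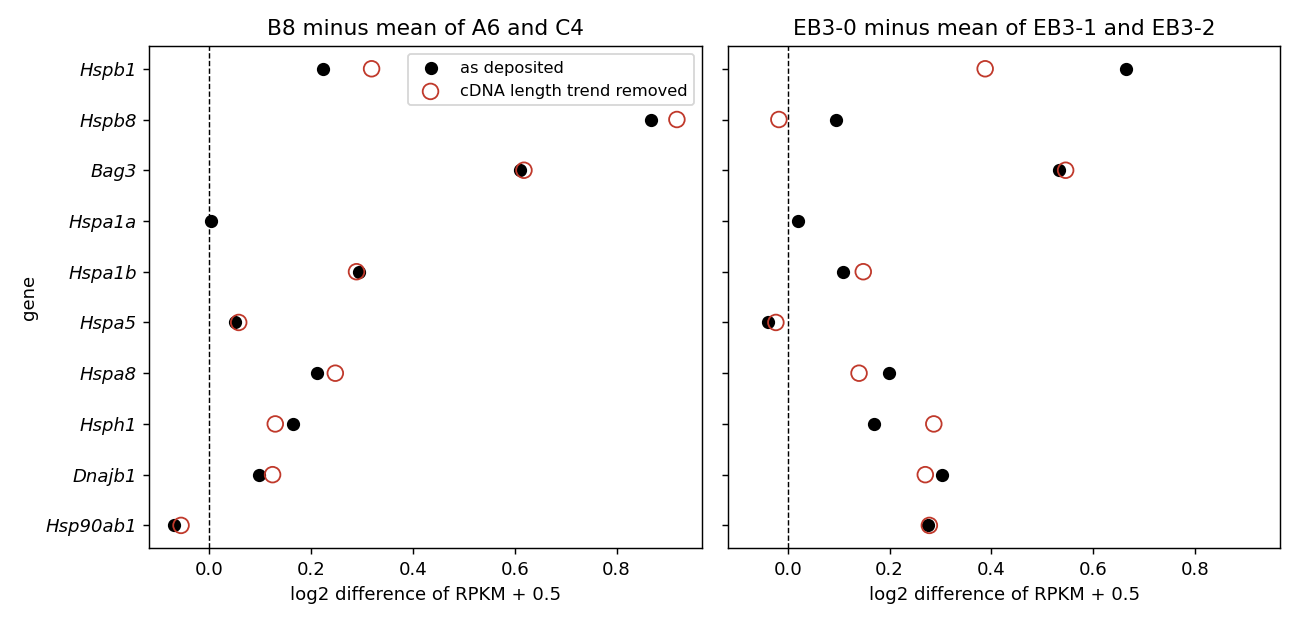
Log2 difference of RPKM + 0.5 (x axis) for each member (y axis) between B8 and the mean of A6 and C4 (left) and between EB3-0 and the mean of EB3-1 and EB3-2 (right); filled points are the deposited values and open circles the values after removal of the trend with cDNA length. Hspb8 (0.87) and Bag3 (0.61) lead in B8, and Hspb1 (0.66, or 0.39 with the trend removed) and Bag3 (0.53) lead in EB3-0.

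The summed level of 8 extraembryonic endoderm markers was also highest in B8, at 148 RPKM against 104 to 111 RPKM in the other 5 libraries. Sparc alone made up 81.5 to 106 RPKM of these sums. Of the 8, 5 were highest in B8 (Gata6, Sox17, Lama1, Col4a1 and Sparc), 2 in A6 (Sox7 and Dab2) and 1 in C4 (Gata4). Sox17, Gata4, Lama1 and Col4a1 were higher in every clone than in every EB3 culture, as were 1476 of the 11595 tested genes. Sox17 and Gata4 were too low to be tested. Lama1, a basement membrane laminin, was at 11.8, 32.9 and 16.3 RPKM in A6, B8 and C4 and at 6.96 to 11.6 RPKM in EB3, and Col4a1, a collagen chain of the same membrane, was at 5.05 RPKM in B8 and 1.27 to 2.81 RPKM elsewhere. The defining factors Gata6, Gata4 and Sox17 stayed under 1 RPKM in all libraries. Of the 8 markers, 4 were tested and 0 called by limma, with a median log2 fold change of 0.67. At an unadjusted p under 0.05 by limma there were 3, against 17.8% of all tested genes. Their part in the level of Hspb8 in B8 was not tested.

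The genes whose pattern over the 6 libraries was most like that of Hspb8, by Pearson's r of log2(RPKM + 0.5), were Nsf (r = 0.995), Vamp8, Serpinb6a, Ap3b1 and Slc35c1 (r = 0.994 each). Vamp8, a SNARE of endosome and autophagosome fusion, was at 8.92, 16.5 and 7.47 RPKM in A6, B8 and C4 and at 6.04 to 6.57 RPKM in EB3, and Nsf, the ATPase that recycles SNARE complexes, was at 36.2, 46.5 and 33.4 RPKM and at 29.3 to 29.8 RPKM. None of the 5 was called by limma, with adjusted p from 0.193 to 0.501. With 6 libraries and 1 clone far above the rest, 182 tested genes had r over 0.95. The 20 tested genes nearest to Hspb8 on chromosome 5, 10 on each side, were also compared with the EB3 mean. Their median log2 difference was 0.13, 0.01 and 0.02 for clones A6, B8 and C4. The nearest tested gene on each side, Prkab1 and Suds3, had log2 fold changes of 0.33 and -0.07. A part of the region in the level of Hspb8 was not tested.

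Outside the members, 148 genes of the chaperone families and the stress programmes were followed in 12 lists, of which 132 were tested. Of these, 66 had a log2 fold change above 0 and 66 below, and the median was 0.00. Limma called 4 of the 132, all lower in the clones, against 0.699% of all tested genes called and 0.354% called lower. At so small a share, a short list without a called gene says little. Ptges3, the HSP90 co-chaperone p23, was at 128, 124 and 138 RPKM in the clones and at 226, 203 and 194 RPKM in EB3 (log2 fold change -0.67 ± 0.09 SE, adjusted p = 0.0285). Cacybp, which binds ubiquitin ligase components and is known to be induced by heat shock, was at 182, 170.0 and 186 RPKM against 261, 283 and 271 RPKM (-0.60 ± 0.09 SE, adjusted p = 0.0314). The groups were well apart for both. Gabarapl1, an autophagosome protein of the ATG8 family, was at 7.37, 8.10 and 7.12 RPKM against 12.1, 12.9 and 13.1 RPKM (-0.72 ± 0.11 SE, adjusted p = 0.0383). Egr1, an immediate early transcription factor gene, was at 8.22, 6.67 and 6.37 RPKM against 16.3, 18.6 and 18.7 RPKM (-1.28 ± 0.13 SE, adjusted p = 0.0114). When 1 library was left out, Egr1 stayed called in 3 of 6 fits and each of the other 3 genes in 1 of 6, the fit without EB3-0, and with EB3-1 and EB3-2 averaged to 1 culture none was called (adjusted p 0.0715 to 0.209).

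Members of the HSP70 and HSP40 families outside the 10 had log2 fold changes on both sides of 0. Of the 7 tested HSP70 genes 0 were called and the median was -0.01, from Hspa1l, the testis-enriched neighbour of Hspa1a, at -0.31 ± 0.16 (SE) to Hyou1, an ER chaperone, at 0.24 ± 0.09 (SE). Of 43 tested HSP40 genes 20 were above 0 and 23 below, with 0 called and a median of -0.07. For 12 of the 43 every clone was below every EB3 culture, and for 4 every clone was above. Among all 11595 tested genes these counts were 1556 and 1476. Dnaja2, an abundant cytosolic HSP40, was at 102 to 108 RPKM in the clones and 121 to 124 RPKM in EB3 (-0.22 ± 0.08 SE, not called by limma).

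All 10 tested chaperonin genes, whose products fold actin and tubulin in the cytosol or proteins imported into mitochondria, had a log2 fold change below 0, with a median of -0.17 and 0 called, though without EB3-0 Tcp1, Cct3 and Cct7 lay above 0 and the median was -0.065, and under quantile normalization Tcp1 did. Hspe1, the mitochondrial co-chaperonin, was the lowest at -0.32 ± 0.12 (SE, adjusted p = 0.211 by limma), with 297 to 302 RPKM in the clones and 344 to 444 RPKM in EB3. At an unadjusted p under 0.05 there were 2 of 10 chaperonin genes, Hspe1 and Cct6a, a subunit of the cytosolic ring, against 17.8% of all tested genes. EB3-0 exceeded the other EB3 cultures by a median of 0.30 on the log2 scale in this list, and its part in the difference was not tested.

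For the unfolded protein response of the ER, the programme to which Hspa5 belongs, 20 other genes were tested: 11 were above 0, 9 below and 0 called, with a median of 0.02. The abundant ER chaperone genes Calr (0.03 ± 0.10 SE, below 0 without EB3-1 or EB3-2) and Hsp90b1 (-0.05 ± 0.09 SE, 0.02 under quantile normalization and 0.01 without A6) had groups that overlapped. Both hold the same ER stress response element as Hspa5 before their start, as do Canx, Creld2, Dnajc3 and Pdia6, 6 of the 17 genes of the list with a window. Dnajc3, an ER co-chaperone, was at 3.43 to 4.81 RPKM in the clones and 5.03 to 7.82 RPKM in EB3 (-0.62 ± 0.20 SE, adjusted p = 0.172 by limma, or 0.0396 without EB3-0). Creld2 was at 0.27 ± 0.11 (SE), Canx at -0.17 ± 0.09 (SE) and Pdia6 at -0.13 ± 0.11 (SE), none of them called by limma over all 6 libraries. Without EB3-0, Creld2 was called as Dnajc3 was, in a fit that called 694 genes. The genes of this list with the element lay on both sides of 0.

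Neither the heat shock factor genes nor Sqstm1, Stub1 and Bag6 were called over all 6 libraries. Sqstm1 and Bag6 were called without EB3-0, in a fit that called 694 genes against only EB3-1 and EB3-2. Hsf1 was at 31.6 to 38.2 RPKM in the clones and at 26.3 to 27.2 RPKM in EB3, higher in every clone (0.34 ± 0.10 SE, adjusted p = 0.138 by limma). Hsf2 was at -0.18 ± 0.09 (SE). Sqstm1, the autophagy receptor p62, was at 113, 125 and 105 RPKM in the clones and at 83.0 to 99.8 RPKM in EB3 (0.36 ± 0.11 SE, adjusted p = 0.148, or 0.0373 without EB3-0, by limma). The ubiquitin ligase gene Stub1, whose product CHIP acts with HSPB8 and BAG3, was at 95.5 to 107 RPKM in the clones and 90.7 to 120.5 RPKM in EB3 (0.01 ± 0.12 SE, with a sign that changed in 5 alternatives). Among the other BAG genes, Bag6 was at 89.8 to 94.4 RPKM against 71.0 to 73.1 RPKM (0.35 ± 0.08 SE, adjusted p = 0.0847, or 0.0291 without EB3-0, by limma). The other small heat shock protein genes were low: Cryab (0.56 ± 0.24 SE) was at 2.48 to 4.04 RPKM in the clones and 1.48 to 2.63 RPKM in EB3, Hspb6 (-0.41 ± 0.17 SE) was at 5.86 to 8.04 and 8.02 to 11.0 RPKM, and 3 of the 8 stayed under 1 RPKM in every library.

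The remaining genes at the ends of the lists were not called over all 6 libraries. Sugt1, an HSP90 co-chaperone, was at 82.4 to 88.7 RPKM in the clones and 67.6 to 71.5 RPKM in EB3 (0.32 ± 0.08 SE, adjusted p = 0.106 by limma, or 0.0350 without EB3-0 and 0.0409 with the cDNA length trend removed). The fit without EB3-0 called 694 genes. Low genes gave wider values: Dnajb3, an HSP40 gene, was at -0.71 ± 0.23 (SE), Hspb11 at -0.57 ± 0.32 (SE), the ER stress sensor gene Ern1 at 0.45 ± 0.23 (SE) and the immediate early gene Jun at 0.59 ± 0.28 (SE). Bag4, another BAG gene, was at -0.20 ± 0.11 (SE). The abundant genes not described above (Hspb2, Bag1, Hspa4, Hspa9, Hspa14, Dnajc7, Dnajc8, Hsp90aa1, Trap1, Stip1, St13, Fkbp4, Hspd1, Cct5, Hsbp1, Hsf2bp, Ubb, Atf4, Dynll1, Dusp1, Ier2 and Junb) lay between -0.23 for Dynll1, a dynein light chain, and 0.27 for Dusp1, a MAP kinase phosphatase, and none was called in any alternative.

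**Figure D5:**
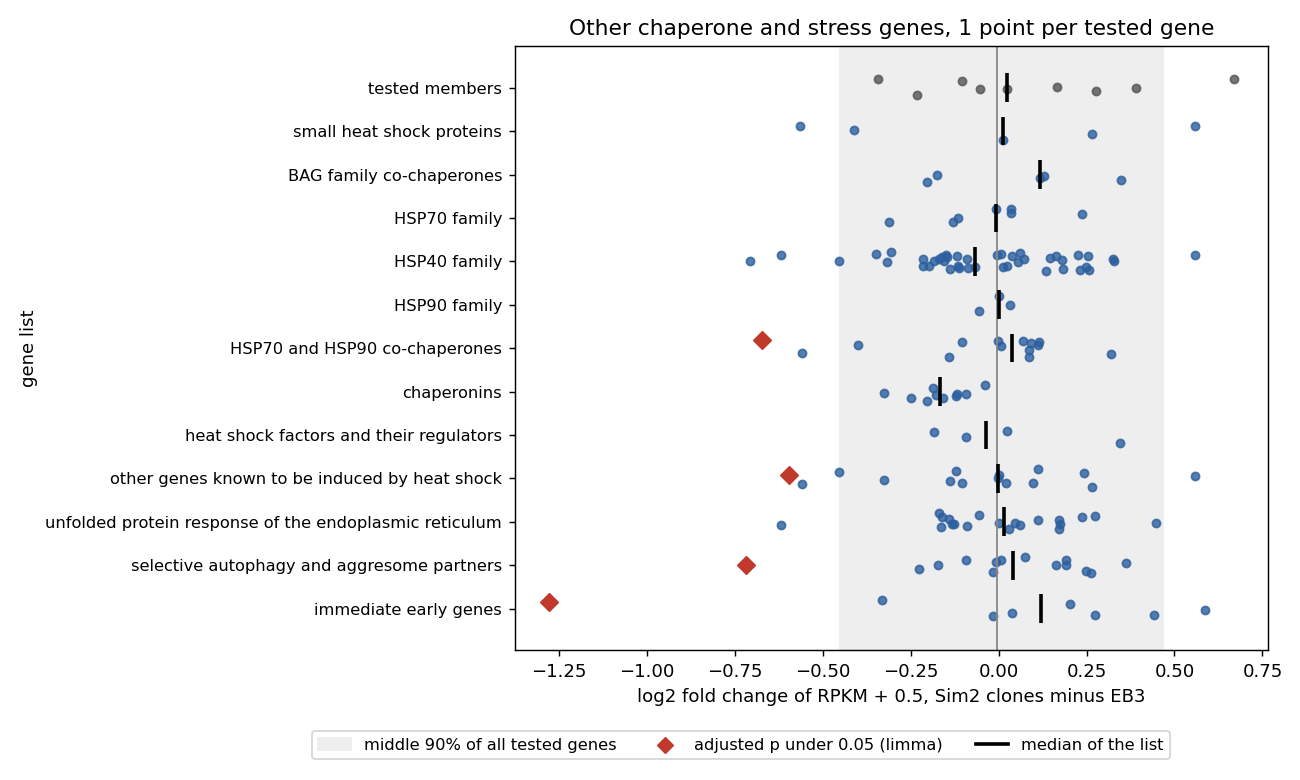
Log2 fold change of RPKM + 0.5 between the Sim2 clones and EB3 (x axis) for tested genes of 12 lists and the tested members (y axis), 1 point per gene, with the median of each list as a black line, all tested genes' middle 90% in grey and called genes as red diamonds. The 4 called genes lie at -0.60 to -1.28, and the 10 chaperonin genes all lie below 0, although Tcp1, Cct3 and Cct7 lie above it without EB3-0, and Tcp1 under quantile normalization.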

How the data were processed

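The members and gene lists were chosen with earlier results of these data known. Per the labels and the study's methods, the authors aligned reads to mm9 with BWA (version not given in the sources used here), summed exon coverage per gene and deposited RPKM values; cDNA length is a column of the table. Whole reads could be recovered from 100% of the values (tolerance 0.001), and no column of sample values was left unused. RPKM is not a count, so limma 3.58.1 (R 4.3.3, lmFit and eBayes with a trend) was run on log2(RPKM + 0.5) for the 11595 genes with a mean of at least 1 RPKM over the 6 libraries, in place of the study's count test, with Benjamini-Hochberg adjustment over them. Fold changes on this scale understate those of low genes. P-values set the difference between the groups against the spread within 3 clones and within 3 cultures of 1 parental line. Differences that come from deriving the clones cannot be told apart from an effect of Sim2. Alternatives were other pseudocounts (0.1 and 1), no filter or a minimum of 5 RPKM, quantile normalization, median centring, removal of the cDNA length trend (spline with 5 degrees of freedom), voom on the recovered reads, EB3-1 and EB3-2 averaged, and each library left out; member overlap without each library was added after seeing the data. The fit was tested on simulated data. Named genes are the 10 members, Sim2, and from each list every called gene up to 5, the 3 most abundant, the highest and the lowest, plus the 5 most like Hspb8, except for a gene not reported here; Lama1, Col4a1 and the other marker genes were picked out after their values were seen. Copies were sought in mm9 with BLAST 2.17.0, and motifs in RefSeq promoter windows.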

Additional observations from a re-analysis of the deposited data

How the results depend on the processing

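Over 15 alternatives, all 134 recomputed log2 fold changes of the tested members moved by less than the spread between replicates. For the fits that leave out 1 library or average EB3-1 and EB3-2, arithmetic keeps the move within that spread. Staying inside it therefore shows nothing for those fits. With 1 library left out, Hspb8 ran from 0.38 to 0.85 and Bag3 from -0.44 to -0.021. The sign changed for Hspa8 and for Dnajb1 only. The count of genes called over the whole table was far less stable: 81 in the fit as reported, 28 with no filter on low values, 250 with the cDNA length trend removed, 6 with EB3-1 and EB3-2 averaged, and 6 to 694 with 1 library left out. Among the other chaperone and stress genes, 4 were called, against 1 with no filter, 7 with the length trend removed, 0 with EB3-1 and EB3-2 averaged, and 0 to 14 with 1 library left out; the count of 694 and that of 14 are those without EB3-0, and the cause was not tested. Members whose groups did not overlap numbered 4 to 6 with 1 library left out, a count that can then only stay or rise, while the share of all tested genes rose from 26.1% to between 30.5% and 49.3%. Among the highest and lowest genes of the lists, directions turned for Trap1, Hsp90b1 and Tcp1. Trap1 was at -9.9e-05 without EB3-1 (-9.9e-05 to 0.078 over the fits that leave out 1 library). Hsp90b1 was at 0.024 with quantile normalization and 0.012 without A6 (-0.10 to 0.012). Tcp1 was at 0.041 with quantile normalization and 0.062 without EB3-0 (-0.095 to 0.062). Abundant genes close to 0 turned too, among them Calr and Stub1. Without EB3-0, Fkbp4 turned to 0.011 and Hsp90aa1 to -0.025, and Hsp90aa1 was also below 0 without EB3-2, A6 or C4. Hsf2bp turned to -0.054 with EB3-1 and EB3-2 averaged and was also below 0 without EB3-1, EB3-2 or A6. Hspa14 turned to 0.029 with the cDNA length trend removed and was also above 0 with quantile normalization and without EB3-0 or B8. No paired analysis was possible because the clones and the EB3 cultures share no replicate numbers. Hspa1a, with 49 to 88 reads, is limited by depth, and Hspb1, Hspa1a and Hspa1b by near-identical copies. Hspa8 and Hsp90ab1 are limited by copies as well, which cover 100% and 99.8% of their transcripts. Their longest copies are less alike, at 94.5% and 90.8% identity, but the identity of the shorter ones is not given.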
